A study of Mus musculus with 4 samples.

Results

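The protein-coding genes described here are Pced1b, Dnal1, Ppp1r26, Golm1, Ntmt1, Pogk and Ube2v2. They are 7 of the 55385 genes counted in granulosa cells (GCs), the somatic layer around the oocyte in the mouse follicle. They were chosen on the measured values themselves, as coding genes whose NT4 libraries both lay apart from both Control libraries. Their difference between the groups is therefore a description and carries no test. GCs came from preantral follicles of Kunming females, 12 to 14 days old at dissection. Follicles were freed mechanically and cultured singly for 6 days in medium with FSH. The NT4 group (2 libraries) had neurotrophin-4 (NT-4) in the medium and the Control group (2 libraries) did not. A figure legend of the study states that the GC samples of a group came from independent experiments. By its methods, GCs were what remained once the oocyte had been freed from its cumulus complex. No sort of the cells is described.

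NT-4 is a secreted growth factor that binds the receptor tyrosine kinase TRKB and, more weakly, the p75 neurotrophin receptor. Activated TRKB signals through the ERK, PI3K and phospholipase C gamma pathways, and the transcription factors CREB and EGR1 are among the known nuclear endpoints. In the ovary, neurotrophins are known for their part in follicle assembly and early follicle growth. The genes here are not textbook targets of that pathway. They code for an esterase-like protein, a motor light chain, a phosphatase inhibitor, a Golgi membrane protein, an N-terminal methyltransferase, a transposase-derived repressor and a ubiquitin-conjugating cofactor.

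The libraries held 49520092 to 78704020 counts, an estimated 12380023 to 19676005 read pairs at about 4 counts per pair. Spearman's correlation across genes ran from 0.979 to 0.985 over the pairs of libraries. All 10 granulosa markers, among them Fshr, Foxl2 and Inha, had a mean of at least 1 CPM (counts scaled to the library total), and their sums were 11860 and 13680 CPM in Control and 10590 and 14580 CPM in NT4. Of 10 leukocyte markers, 3 had no count and the others together stayed under 1 CPM in each library. Of 10 oocyte markers, 9 had a mean of at least 1 CPM, with sums of 101.6 and 69.1 CPM in Control and 82.3 and 79.5 CPM in NT4. The 10 theca and stroma markers, among them Cyp17a1, Dcn and Col3a1, summed to 956 and 994.5 CPM in Control. In NT4 they summed to 1372 and 1105 CPM. Of the 10, 6 lay higher in both NT4 libraries and 0 lower, against 11.9% and 14.6% of all genes tested. The part of these cell types in the values given here was not tested. In bulk libraries, fewer cells of a type and less RNA per cell cannot be told apart.

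Across the table, 0 of 19259 genes tested (0%) passed an adjusted p of 0.05 in edgeR's quasi-likelihood test. Without adjustment, 383 genes (1.99%) had a p under 0.05, and 208 of them (1.08%) also passed the fold of 2 in the study's criterion. Other tools called 65 genes (DESeq2), 59 (the exact test of edgeR) and 0 (limma voom) after adjustment. The groups did not overlap in 26.6% of the genes tested, with NT4 higher in 11.9% and lower in 14.6%. Of the genes chosen, 3 lay higher and 4 lower, all without overlap by the rule itself, and 7 of 7 passed the filter on low counts. Their lowest count in any library was 263.

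Among 12555 coding genes at a mean of 1 CPM or more, 3017 had groups that did not overlap, 1384 higher and 1633 lower in NT4. When these were ranked by the gap on the log2 CPM scale between the nearest libraries of the groups, Pced1b, Dnal1 and Ppp1r26 held ranks 6, 7 and 8. Golm1 came at rank 13, Ntmt1 at 23, Ube2v2 at 26 and Pogk at 29. The list is thus not the top of the ranking. The genes with wider gaps than Pced1b were Gm43951, Saa2, Zfp82, Gm14440 and Zfp965, at means of 1.001 to 5.91 CPM, against 13.8 CPM for Pced1b. At the lower end, the gap was 0.96 log2 units for Pogk, 0.97 for Emb just above it and 0.96 for Tef just below it, and neither of these 2 was in the list.

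**Figure D1:**
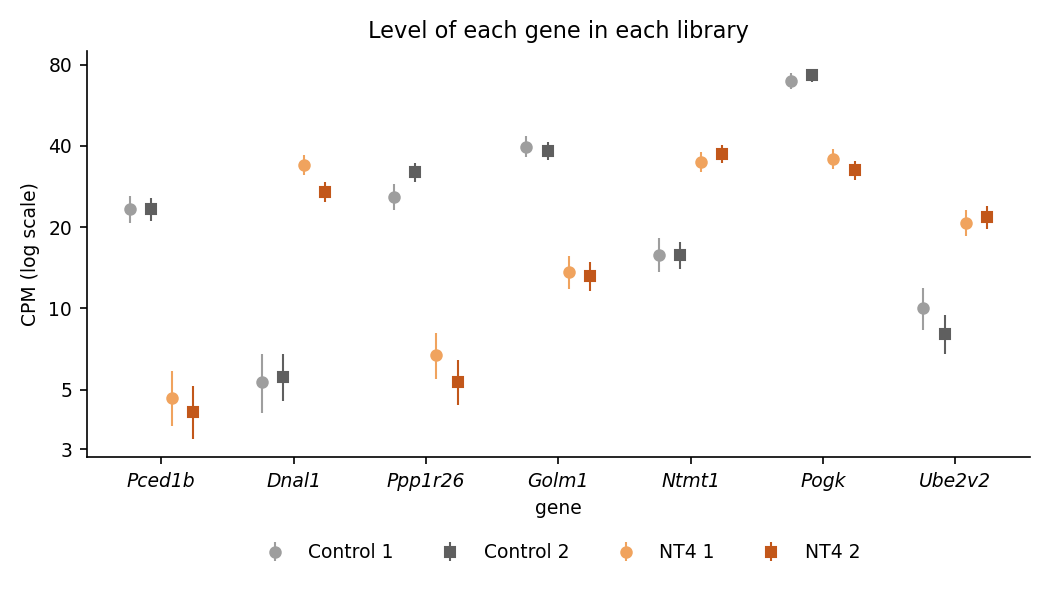
Level of each gene in each library in CPM on a log scale, with 95% exact Poisson intervals of the estimated read pairs, which cover counting error only. In each gene the groups do not overlap, from a ratio of 1.95 between the nearest libraries in Pogk to 4.99 in Pced1b.

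Pced1b was among the genes that lay lower in NT4. It codes for a protein with a PC-esterase domain, a family related to enzymes that remove acyl groups, and its substrate is not well known. The gene (ENSMUSG00000044250) lies on the plus strand of GRCm38 chromosome 15, from 97247107 to 97385680. It stood at 23.3 CPM in Control 1 and 23.3 CPM in Control 2, and at 4.66 CPM in NT4 1 and 4.13 CPM in NT4 2. The Control libraries were nearly equal and the NT4 libraries were both far under them. The lower Control library was 4.99 times the higher NT4 library. The log2 fold change was −2.39 (SE 0.17), the largest decrease of the 7 genes. The NT4 values rested on an estimated 72 and 81 read pairs, so the counting interval in NT4 2 ran from 3.28 to 5.13 CPM.

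The neighbours of Pced1b were examined as a check on how reads were assigned. Its first exon lies inside the exon of Amigo2, a cell adhesion gene on the opposite strand, and the genes share 58 of the 2197 exonic bases of Pced1b (2.64%), none of them coding. Amigo2 stood at 28.7 and 26.8 CPM in Control and 26.1 and 28.9 CPM in NT4, with groups that overlapped. Its log2 fold change was 0.01 (95% interval −0.37 to 0.39). Summed with Amigo2, Pced1b had a log2 fold change of −0.66. This sum takes in all counts of Amigo2, so it shrinks the fold change whether or not any read was misassigned. On the far sides lay the amino acid transporter gene Slc38a4, 191151 bases away, and Rpap3, 289417 bases away. Slc38a4 stood at 29.5 and 13.3 CPM in Control and 20.3 and 13.2 CPM in NT4. Rpap3, a chaperone cofactor of RNA polymerase assembly, ran from 37.3 to 40.4 CPM over the libraries with both NT4 libraries the lower. Gm4383, a pseudogene inside an intron, had a count in 1 library only. The processed pseudogene Gm18960 on chromosome 13 copies 714 bases of Pced1b at 96.4% identity, and it stayed at or under 0.242 CPM in each library. The paralogue Pced1a stood at 15.8 and 15.6 CPM in Control and 15.0 and 15.4 CPM in NT4, lower in both NT4 libraries with a log2 fold change of −0.03 (95% interval −0.42 to 0.37).

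Ppp1r26 codes for a nucleolar protein that binds and inhibits protein phosphatase 1. It is ENSMUSG00000035829, on the plus strand of chromosome 2 from 28446800 to 28455508. Its values were 25.9 CPM in Control 1, 32.0 CPM in Control 2, 6.71 CPM in NT4 1 and 5.34 CPM in NT4 2. Libraries within a group differed by ratios of 1.24 and 1.26, the widest spread among the genes that lay lower, and the gap between the groups was a ratio of 3.85. On the log2 scale the difference was −2.25 (SE 0.21).

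No annotated exon overlapped Ppp1r26 on either strand. The nearest expressed coding gene after it, 1700007K13Rik, lies 6493 bases away on the opposite strand and stood at 9.01 and 10.2 CPM in Control and 6.41 and 11.2 CPM in NT4. Mrps2, a mitochondrial ribosomal protein gene on the same strand 12558 bases away, stood between 59.3 and 64.8 CPM in all libraries. Olfm1, the expressed coding gene before Ppp1r26, 216064 bases away, spanned 18.8 to 40.1 CPM with the NT4 libraries at both ends. Of the catalytic subunits that Ppp1r26 acts on, Ppp1ca stood at 223.6 and 307.4 CPM in Control and 266.1 and 330.0 CPM in NT4, a log2 fold change of 0.19 (95% interval −0.34 to 0.72). Ppp1cb stood at 218.9 and 210.2 CPM in Control and 199.9 and 186.5 CPM in NT4, lower in both NT4 libraries by 0.13 on the log2 scale (95% interval −0.41 to 0.15). The log2 fold change of Ppp1cc was 0.25 (95% interval −0.23 to 0.73), with overlapping groups, and was 0.03 without Control 1 and 0.51 without Control 2.

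Golm1, also known as GP73, is a single-pass membrane protein of the cis-Golgi that can be cleaved and released. The gene (ENSMUSG00000021556) lies on the minus strand of chromosome 13, from 59634626 to 59675811. It measured 39.7 CPM in Control 1, 38.4 CPM in Control 2, 13.6 CPM in NT4 1 and 13.2 CPM in NT4 2. Replicates were close in both groups, with ratios of 1.04 in Control and 1.03 in NT4. NT4 lay at −1.52 (SE 0.14) on the log2 scale relative to Control, and the gap was a ratio of 2.82.

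The last exon of Golm1 runs into Naa35, a subunit gene of the NatC acetyltransferase on the opposite strand, and the genes share 1297 of its 4424 exonic bases (29.3%), outside its coding sequence. This was the largest overlap of the 7 genes. Naa35 stood at 77.1 and 85.4 CPM in Control and 81.8 and 83.8 CPM in NT4, a log2 fold change of 0.05 (95% interval −0.26 to 0.36). Summed with Naa35, Golm1 had a log2 fold change of −0.30. Naa35 had the higher counts and was near equal between the groups, so this sum shrinks whether or not reads were misassigned. Agtpbp1 and Isca1, the expressed coding genes on either side at 49399 and 79598 bases, had log2 fold changes of 0.01 and −0.02. Casc4, the closest relative of Golm1, stood at 41.4 and 37.9 CPM in Control and 40.4 and 35.4 CPM in NT4.

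Pogk joins a KRAB repressor domain to a DNA-binding domain and a transposase domain of the pogo family, a case of a mobile element taken over by the host genome. It is ENSMUSG00000040596, on the minus strand of chromosome 1 from 166384622 to 166409863. It stood at 69.7 CPM in Control 1, 73.0 CPM in Control 2, 35.8 CPM in NT4 1 and 32.5 CPM in NT4 2. The Control mean was 2.09 times the NT4 mean. The log2 fold change was −1.04 (SE 0.13), and the gap was a ratio of 1.95, the narrowest of the set.

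Tada1, a subunit gene of the SAGA coactivator on the opposite strand, overlaps 1054 of the 9586 exonic bases of Pogk (11%), none of them coding. It stood at 20.2 and 15.3 CPM in Control and 17.7 and 18.2 CPM in NT4, a log2 fold change of 0.04 (95% interval −0.44 to 0.52). Of the expressed coding genes on either side, Uck2, 813020 bases away, ran from 147.5 to 170.2 CPM with overlapping groups. Ildr2, 67799 bases away, stood at 4.08 and 4.30 CPM in Control and 3.47 and 1.40 CPM in NT4, so both NT4 libraries were lower, with a log2 fold change of −0.77 (95% interval −1.93 to 0.38) and an edgeR adjusted p of 1. It was −0.27 without NT4 2 and −1.55 without NT4 1. The pogo relative Pogz stood at 71.6 and 86.4 CPM in Control and 81.9 and 61.9 CPM in NT4. Gm3372, a pseudogene that copies 257 bases of Pogk at 91.4% identity, had no count.

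Dnal1 had the largest increase. It codes for a leucine-rich repeat light chain that binds the motor domain of a heavy chain in the outer dynein arm of motile cilia, and its human counterpart is a gene of primary ciliary dyskinesia. The gene (ENSMUSG00000042523) lies on the plus strand of chromosome 12, from 84114366 to 84147498. Its values were 5.31 CPM in Control 1, 5.57 CPM in Control 2, 34.1 CPM in NT4 1 and 27.0 CPM in NT4 2. The NT4 libraries were apart by a ratio of 1.26, and the lower of them was still 4.85 times the higher Control library. The log2 fold change was 2.51 (SE 0.19). In Control the values rested on an estimated 66 and 103 read pairs, and the counting interval in Control 1 ran from 4.11 to 6.76 CPM.

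Pnma1, on the opposite strand, overlaps 384 of the 6938 exonic bases of Dnal1 (5.53%). It stood at 3.49 and 3.21 CPM in Control and 3.78 and 4.31 CPM in NT4, higher in both NT4 libraries by 0.29 on the log2 scale (95% interval −0.33 to 0.92), at an edgeR adjusted p of 1. Acot6, an acyl-CoA thioesterase gene that ends 3017 bases before Dnal1 on the same strand, stood at 24.7 and 26.6 CPM in Control and 22.2 and 24.8 CPM in NT4. Elmsan1, a scaffold of a histone deacetylase complex on the other side, stood at 49.0 and 45.1 CPM in Control and 45.8 and 33.3 CPM in NT4. Their log2 fold changes were −0.11 and −0.23, with overlapping groups.

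Genes of the outer dynein arm were listed as the family of Dnal1, together with factors that dock or assemble it, such as Ccdc114 and Dnaaf2. The counts that follow are for this mixed list and not for the arm alone. Of the 25 genes listed, 16 had counts enough to be tested, and 0 passed 0.05 before or after adjustment in edgeR's test. Of the 16, 2 lay higher in both NT4 libraries (12.5%, against 11.9% of all genes) and 0 lay lower (against 14.6%). Their median log2 fold change was 0.03, against 0.0045 for all genes tested. The 2 were Dynll1, a light chain shared with cytoplasmic dynein, at 106.6 and 105.2 CPM in Control and 118.8 and 114.6 CPM in NT4, and the heavy chain gene Dnah9, at 0.545 and 0.393 CPM in Control and 1.08 and 0.991 CPM in NT4. Dnal4, another light chain, stood at 23.3 and 21.9 CPM in Control and 20.6 and 30.7 CPM in NT4. The core heavy chain Dnah5 and the intermediate chain Dnaic1 each had a count in 1 library only, at 0.0508 CPM. Markers of multiciliated epithelium summed to 21.12 and 16.25 CPM in Control and 16.02 and 15.95 CPM in NT4, with Mcidas and Sntn at 0. Of the 10 markers, 8 had a count and 4 a mean of at least 1 CPM, of which Ccno was the highest at 8.07 to 10.8 CPM. Of these 10, 2 (Rsph1 and Cfap126) lay lower in both NT4 libraries and 0 higher, against 14.6% and 11.9% of all genes tested.

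Ntmt1 methylates the N-terminal residue that is exposed by loss of the first methionine, where a proline-lysine motif follows it. RCC1, SET and RB1 are among its substrates. The gene (ENSMUSG00000026857) lies on the plus strand of chromosome 2, from 30807826 to 30823033. It measured 15.8 CPM in Control 1, 15.8 CPM in Control 2, 34.9 CPM in NT4 1 and 37.4 CPM in NT4 2. The Control libraries differed by a ratio of 1.004 and the NT4 libraries by 1.07. Its log2 fold change came to 1.21 (SE 0.15), and the gap was a ratio of 2.20.

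Asb6, an ankyrin repeat and SOCS box gene on the opposite strand, ends 64 bases from Ntmt1 with no shared base. It stood at 26.0 and 27.7 CPM in Control and 30.9 and 29.9 CPM in NT4, higher in both by 0.20 on the log2 scale (95% interval −0.16 to 0.56). On the other side, 1700001O22Rik stood at 1.82 and 2.29 CPM in Control and 2.19 and 3.33 CPM in NT4, and the non-coding 4930527E20Rik, which ends 397 bases before Ntmt1, stayed under 0.3 CPM. Among substrates, Rcc1 had a log2 fold change of −0.06 (95% interval −0.45 to 0.33), Set −0.14 (−0.41 to 0.13) and Rb1 −0.19 (−0.51 to 0.12). For Set and Rb1 both NT4 libraries were the lower, from 377.2 to 397.9 CPM against 430.2 to 436.6 CPM for Set. The close relative Mettl11b, also called Ntmt2, stayed between 0.0508 and 0.129 CPM, under the 3 read pairs (0.152 to 0.242 CPM by library) that a count of 0 allows.

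Ube2v2, or MMS2, is a ubiquitin-conjugating enzyme variant without a catalytic cysteine. Together with the active enzyme encoded by Ube2n it builds ubiquitin chains linked through lysine 63, which serve in the tolerance of DNA damage. The gene (ENSMUSG00000022674) lies on the minus strand of chromosome 16, from 15552077 to 15595773. It stood at 9.996 CPM in Control 1, 8.03 CPM in Control 2, 20.7 CPM in NT4 1 and 21.8 CPM in NT4 2. The Control libraries were apart by a ratio of 1.25 and the gap was a ratio of 2.07. The log2 fold change was 1.26 (SE 0.18).

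The counts of Ube2v2 are uncertain because of copies of its sequence. Its coding sequence is 438 bases long, 6.14% of the 7132 exonic bases, and 6 processed pseudogenes copy at least 150 bases of its transcripts at 90% identity or more. Gm6565 on chromosome 6 is identical to the coding sequence over 438 bases and Gm6361 on chromosome 15 over 435, so a read of 150 bases that lies within the shared part could belong to any of the 3 loci. The first 120 coding bases are shown because they carry this problem, 5′ to 3′ on the coding strand, from the GENCODE M21 transcripts. For Ube2v2 they lie within 15581104 to 15594475 on the minus strand of chromosome 16 (across an intron), for Gm6565 at chr6:100604683-100604802 on the plus strand, for Gm6361 at chr15:31446698-31446817 on the minus strand and for Gm13650 at chr2:77256304-77256423 on the minus strand, all in GRCm38. Capitals mark the bases that differ from Ube2v2, of which there are 0 in Gm6565, 0 in Gm6361 and 4 in Gm13650.
Ube2v2: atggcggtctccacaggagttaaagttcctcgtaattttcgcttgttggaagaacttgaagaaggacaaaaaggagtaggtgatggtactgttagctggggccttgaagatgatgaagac
Gm6565: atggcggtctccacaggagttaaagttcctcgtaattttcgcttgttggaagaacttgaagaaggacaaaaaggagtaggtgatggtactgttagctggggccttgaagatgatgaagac
Gm6361: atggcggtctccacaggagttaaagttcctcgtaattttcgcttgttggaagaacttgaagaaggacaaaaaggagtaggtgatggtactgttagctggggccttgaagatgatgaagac
Gm13650: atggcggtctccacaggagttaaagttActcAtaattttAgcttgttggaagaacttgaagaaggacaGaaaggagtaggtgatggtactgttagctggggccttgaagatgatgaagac

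The identical copies held counts of their own. Gm6361 stood at 8.06 and 5.48 CPM in Control and 4.87 and 5.11 CPM in NT4, lower in both NT4 libraries by 0.41 on the log2 scale (95% interval −1.07 to 0.24). Gm6565 stood at 4.2 and 7.09 CPM in Control and 7.66 and 7.94 CPM in NT4, higher in both by 0.48 (95% interval −0.28 to 1.25). Without Control 1 and without Control 2 the log2 fold changes were −0.13 and −0.65 for Gm6361 and 0.14 and 0.93 for Gm6565. Per kilobase of exon, these were 9.59 to 18.5 CPM in the copies against 1.13 to 3.05 CPM in Ube2v2. The other 4 copies were each under 0.75 CPM in every library. All 6 copies together held 13.1 and 12.7 CPM in Control and 12.8 and 13.3 CPM in NT4. Summed with its copies, Ube2v2 stood at 23.1 and 20.8 CPM in Control and 33.5 and 35.1 CPM in NT4. The NT4 libraries remained the higher pair, at 1.57 times the Control mean against 2.36 times for Ube2v2 alone.

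The nearest expressed coding genes on either side of Ube2v2 did not show the difference, but at their distance they say little about read assignment. Mcm4, a subunit gene of the replicative helicase 28124 bases away on the same strand, stood at 146.2 and 148.6 CPM in Control and 133.6 and 134.8 CPM in NT4, lower in both by 0.11 on the log2 scale (95% interval −0.40 to 0.17). Efcab1 on the far side, 570706 bases away, stood at 2.38 and 3.27 CPM in Control and 1.5 and 3.88 CPM in NT4. The partner gene Ube2n stood at 53.9 and 54.8 CPM in Control and 61.1 and 57.6 CPM in NT4, higher in both by 0.15 (95% interval −0.16 to 0.45), at an edgeR adjusted p of 1.

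The paralogue Ube2v1 pairs with the same enzyme and is known for its part in NF-kappa B signalling. It stood at 127.2 and 90.4 CPM in Control, at 13.0 CPM in NT4 1 and at 92.3 CPM in NT4 2, so 1 library stood far from the others. Gm20431, an annotated gene that reads through from Tmem189 and shares exons with Ube2v1 on the same strand, was looked up after these values were seen. It had 89.3 CPM in NT4 1 and no count in the other libraries. Tmem189 itself stood at 45.6 and 53.8 CPM in Control and 25.4 and 41.3 CPM in NT4, lower in both NT4 libraries with a log2 fold change of −0.55 (95% interval −1.23 to 0.13). The sum of Ube2v1 and Gm20431 was 127.2, 90.4, 102.3 and 92.3 CPM, with overlapping groups, and its log2 fold change was −0.14 (SE 0.18) against −1.01 (SE 0.84) for Ube2v1 alone. Without NT4 1, that of Ube2v1 alone was −0.20.

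**Figure D2:**
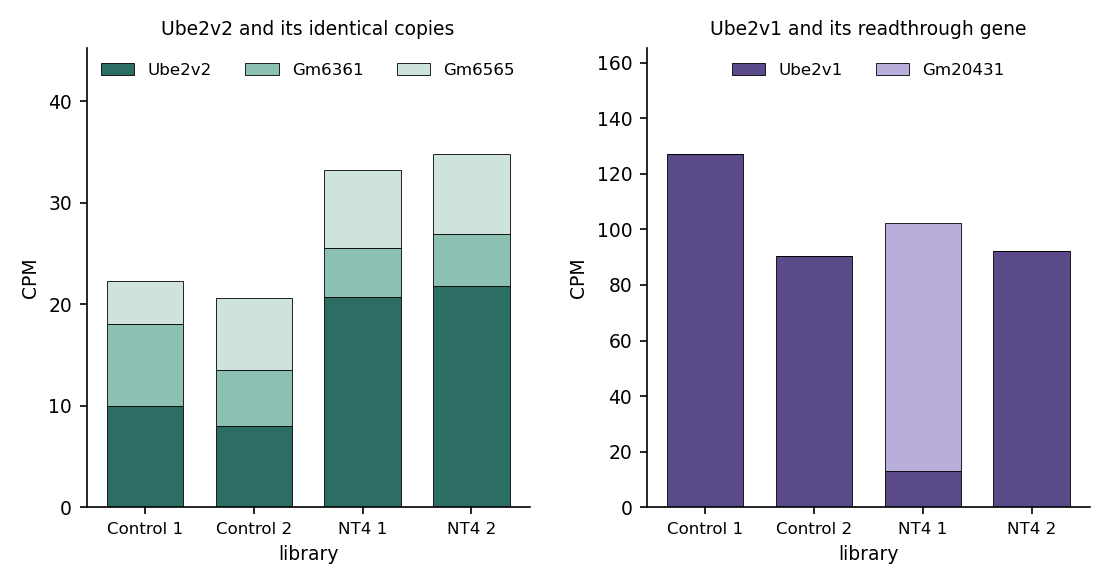
CPM per library, stacked from 0, of Ube2v2 with the pseudogenes Gm6361 and Gm6565 (left), and of Ube2v1 with the readthrough gene Gm20431 (right). The Ube2v2 part of the bar is 20.7 and 21.8 CPM in NT4 against 9.996 and 8.03 CPM in Control, and in NT4 1 the bar of Ube2v1 is mostly Gm20431.

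Over the 7 genes, 4 shared exonic bases with a gene on the opposite strand (57.1%, against 30.6% of coding genes at a mean of 1 CPM or more) and 0 with a gene on the same strand (against 8.83%). Libraries were made with strand marked by dUTP, and whether counting used strand is not stated, so the values of Pced1b, Dnal1, Golm1 and Pogk are uncertain to that extent. The neighbours, counted as genes that overlapped or lay within 10000 bases and the nearest expressed coding gene on each side, were 22, of which 20 could be tested. Some of the nearest expressed genes lay far off, up to 813020 bases for Uck2, and say little about read assignment. None of them (0 of 20) passed 0.05 in edgeR's test, adjusted or not, and DESeq2, the exact test and voom called 0 after adjustment. Both NT4 libraries lay higher in 2 and lower in 4 (30.0% of the 20, against 26.6% of all genes, 11.9% higher and 14.6% lower). Their median log2 fold change was −0.01 and their range −0.77 to 0.45.

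**Figure D3:**
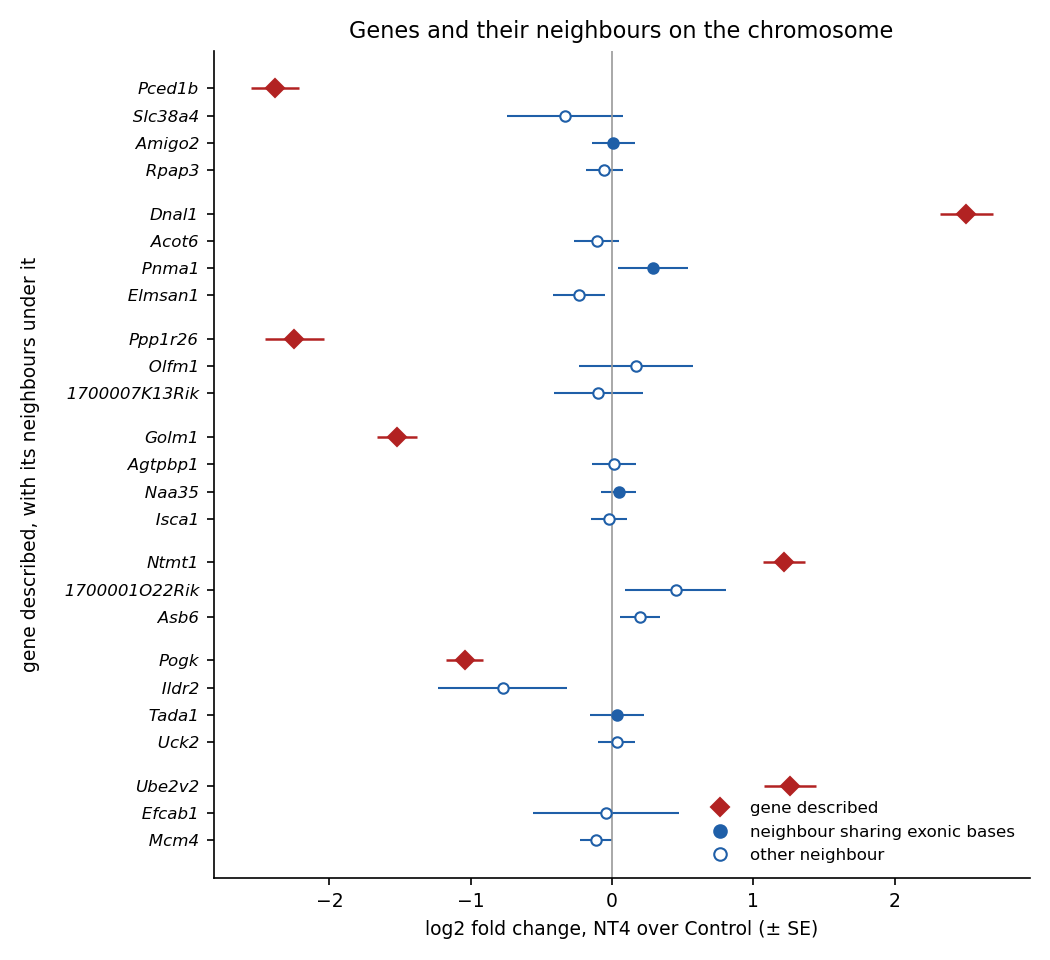
Log2 fold change of NT4 over Control with its SE for each gene (diamonds) and for its neighbours at a mean of 1 CPM or more (circles, filled where exonic bases are shared). The diamonds lie between −2.39 and 2.51 by choice of the genes, and the circles between −0.77 and 0.45.

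The families and pathways of the 7 genes were listed from general knowledge, 150 genes in all without the 7, of which 136 were tested. After adjustment 0 passed 0.05 in edgeR's test, and DESeq2, the exact test and voom also called 0. At an unadjusted p of 0.05 there was 1 gene, Ppp1r14a, an inhibitor of myosin phosphatase, at 2.59 and 2.24 CPM in Control and 4.02 and 5.11 CPM in NT4. It lay higher by 0.94 on the log2 scale (SE 0.28, unadjusted p = 0.0169 and adjusted p = 1 in edgeR). Groups did not overlap in 40 of the 136, 12 higher and 28 lower (29.4%, against 26.6% of all genes). By direction, 11.9% of all genes tested lay higher and 14.6% lower, the background for each list. By list, this share of genes without overlap ran from 12.5% in the outer dynein arm list, which includes docking and assembly factors, to 53.8% in N-terminal methylation. In the latter, 3 genes lay higher and 4 lower. In the esterase family of Pced1b it was 50% of 8 genes, 0 higher and 4 lower, and in the protein phosphatase 1 list 29.7% of 37, with 2 higher and 9 lower. The median log2 fold change of each list lay between −0.12 and 0.03.

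Within the list for Pogk, the corepressor enzyme Setdb1 stood at 89.8 and 89.8 CPM in Control and 84.3 and 82.7 CPM in NT4, and the imprint-keeping zinc finger gene Zfp57 at 5.09 and 4.10 CPM in Control and 8.57 and 5.31 CPM in NT4. Within that for Golm1, Golim4, another Golgi phosphoprotein of the same orientation, stood at 92.1 and 63.4 CPM in Control and 58.1 and 57.6 CPM in NT4, a log2 fold change of −0.40 (SE 0.20, unadjusted p = 0.0915 in edgeR). These were named after their values were seen. In Golph3l the library NT4 2 stood apart, at 42.3 CPM against 11.7 to 15.6 CPM in the other 3 libraries.

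**Figure D4:**
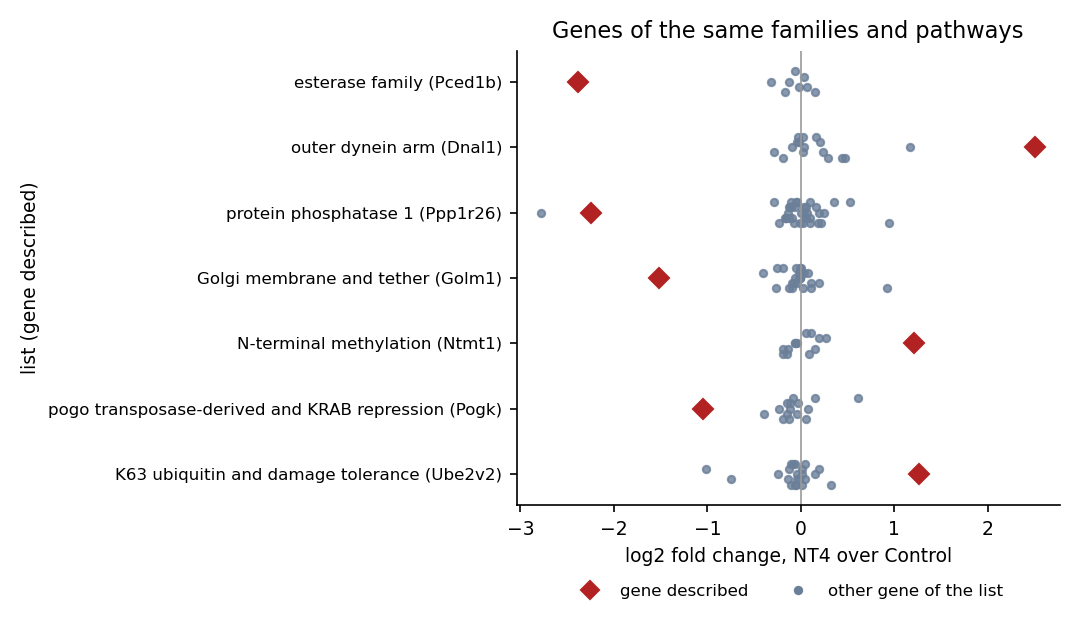
Log2 fold change of NT4 over Control for each gene described (diamonds) and for the other tested genes of its family or pathway list (circles). The circle at −2.78 is Ppp1r14c, which had at most 0.515 CPM in any library, and the circle at −1.01 is Ube2v1.

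Levels can be compared between genes only per length. Per kilobase of exon, Pced1b and Golm1 led in Control, at 10.6 and 10.6 CPM and at 8.98 and 8.67 CPM, and Dnal1 was lowest, at 0.766 and 0.803 CPM. In NT4, Ntmt1 led at 12.5 and 13.4 CPM per kilobase, Dnal1 had 4.91 and 3.89, and Ppp1r26 was lowest at 1.19 and 0.9497. Exonic length ran from 2197 bases in Pced1b to 9586 in Pogk, around a median of 4564 for coding genes at a mean of 1 CPM or more. The replicate ratios of the 7 genes, 1.003 to 1.25 in Control and 1.03 to 1.26 in NT4, can be read beside medians of 1.12 and 1.17 over the same coding genes. A choice of genes with groups apart favours close replicates, so these ratios are a description only.

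Genes of like pattern were sought by the root mean square difference of centred log2 CPM over the 4 libraries, 2 for each gene. This uses the same libraries as the choice of the genes and is a description only. Pced1b and Ppp1r26 were the closest to each other of the coding genes at 1 CPM or more, with a difference of 0.14 log2 units, and Usf3 came next for both, at 15.4 and 27.2 CPM in Control and 5.23 and 3.33 CPM in NT4. Ntmt1 and Ube2v2 shared Umad1, at 3.01 and 2.67 CPM in Control and 6.60 and 7.19 CPM in NT4, with differences of 0.07 and 0.06. The circadian output gene Tef was the other one for Ntmt1, and Ntmt1 itself for Ube2v2. Pfkfb3, a regulator of glycolysis, was closest to Pogk, at 61.3 and 61.2 CPM in Control and 31.5 and 26.5 CPM in NT4 with a difference of 0.05, followed by Dsel. Golm1 was matched by Zfp169 and Apob, both at under 5 CPM in every library, and Apob gave way to Hspa1l at a prior count of 0.5.

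Promoter sequence was examined for what the rule did not use. The RefSeq tables held promoters of GRCm38.p6 for 6 of the 7 genes, 7 promoters in all since Ntmt1 had 2, and the 250 bases before each start were compared with those of 32817 promoters. G and C bases made up 58.8% (Dnal1) to 81.2% (Ppp1r26), each above the median of 52.4%, and CG pairs numbered 9 to 39 against a median of 6. These medians cover all promoters, not only those of genes expressed in these cells, and a comparison among expressed genes was not made. The letters TGACGTCA (the cAMP response element bound by CREB), CACGTG (an E-box) and GCGTGGGCG (an EGR element) were searched on both strands. The first occurred in 1 of the 7 promoters, that of Pogk, and in 1.55% of all promoters. CACGTG (6.02% of all) and GCGTGGGCG (0.536%) occurred in 0 of the 7. A match in a sequence is a description and not a site of binding.

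The promoters of Pogk, Golm1 and Dnal1 are shown, the parts outside annotated exons, as those of a gene with a match, a gene without one that also lay lower in NT4, and the gene with the largest increase. They lie at chr1:166409864-166410078 and chr13:59675812-59676034 on the minus strand and at chr12:84114078-84114327 on the plus strand, in GRCm38. Capitals mark TGACGTCA, which begins 65 bases before the RefSeq start site of Pogk at 166409828. That of Dnal1 holds a run of G and had the lowest share of G and C bases of the 7.
Pogk: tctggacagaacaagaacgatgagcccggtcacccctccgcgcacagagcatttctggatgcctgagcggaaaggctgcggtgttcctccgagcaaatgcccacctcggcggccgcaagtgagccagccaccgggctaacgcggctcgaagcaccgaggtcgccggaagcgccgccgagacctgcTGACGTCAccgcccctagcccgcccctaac
Golm1: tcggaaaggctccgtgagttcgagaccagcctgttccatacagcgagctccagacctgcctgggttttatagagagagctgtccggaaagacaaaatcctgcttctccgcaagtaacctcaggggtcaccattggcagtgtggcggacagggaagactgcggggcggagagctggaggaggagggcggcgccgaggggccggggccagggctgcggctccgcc
Dnal1: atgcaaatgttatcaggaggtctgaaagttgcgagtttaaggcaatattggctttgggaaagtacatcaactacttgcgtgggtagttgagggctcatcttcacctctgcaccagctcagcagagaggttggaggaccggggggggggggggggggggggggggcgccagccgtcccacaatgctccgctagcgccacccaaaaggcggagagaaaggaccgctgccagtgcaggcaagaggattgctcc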

How the data were processed

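Bulk RNA-seq counts of GCs from 2 Control and 2 NT4 libraries were used, grouped by their GEO labels. By their methods, the authors trimmed reads with Cutadapt, mapped them by HISAT2 (Ensembl mouse genome, mm10 in the submitters' processing notes, the build GRCm38), and used StringTie and ballgown for expression. The authors' methods name FPKM, while the deposited values are, from the files themselves, whole numbers whose totals differ by library, and were taken as estimated counts without normalization. How StringTie output became whole counts, and whether strand was used, is not given in the sources used here. Whether reads of a gene sat in assembled transcripts outside the deposited genes was not examined, so the checks on neighbours and copies do not cover this. In each library 45.4% to 46.2% of the low counts (1 to 12) were multiples of 4, so read pairs were estimated as counts divided by 4.

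Counts were tested in R 4.3.3 with edgeR 4.0.16 (quasi-likelihood, TMM, the default filter, group alone, Benjamini-Hochberg over 19259 genes, two-sided). The intervals of log2 fold changes come from that fit. Alternatives used DESeq2 1.42.0, limma 3.58.1, other scalings and filters, and libraries left out. The procedure was tested on simulated data. CPM is counts scaled to the library total, and 2 was the prior count for log2 CPM. Coordinates, exons and transcripts came from GENCODE M21, which was not matched to the Ensembl release that the paper names. Copies were found with blastn 2.17.0 (at least 150 bases, at least 90% identity). Symbols were matched for 55144 of 55385 genes. By rule, the genes named besides the 7 were the neighbours, a set of partners and any partner with an unadjusted p under 0.05, the copies, and 2 genes of like pattern each, of which those of Dnal1 are not reported here. Any other gene, such as Dynll1, Dnah9, Ppp1r14c, Setdb1, Zfp57, Golim4, Golph3l, Gm20431 and Tmem189, was named outside this rule after its values were seen. The 7 genes and all lists were chosen with earlier results of these data known. With 2 libraries a group, p-values measure only the spread between these libraries. Counting intervals and floors leave out any error from PCR duplicates.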

Additional observations from a re-analysis of the deposited data

How the results depend on the processing

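The 7 genes kept the direction of their log2 fold change under the alternatives run, with a range of −2.46 to −2.32 for Pced1b, −2.41 to −2.07 for Ppp1r26, −1.54 to −1.51 for Golm1, −1.10 to −0.99 for Pogk, 2.34 to 2.65 for Dnal1, 1.14 to 1.27 for Ntmt1 and 1.12 to 1.41 for Ube2v2. This holds by their choice and is no independent support. Summed with genes that overlap their exons on either strand, the values were −0.66 for Pced1b, 1.99 for Dnal1, −0.30 for Golm1 and −0.75 for Pogk, and summed with its copies that of Ube2v2 was 0.67. The overlapping genes had smaller fold changes and were added with all their counts. Such sums shrink by arithmetic and do not measure how many reads were misassigned. No gene overlaps their exons on the same strand, so that alternative gave no value. Of genes at an adjusted p under 0.05, 10 were called without the filter, 65 by DESeq2, 59 by edgeR's exact test and 0 to 37 with a library left out, the 37 without Control 2 and 12 without Control 1. The study's criterion was met by 345 genes without the filter, 119 with counts divided by 4, 87 where a CPM of 1 was asked of 2 libraries, 107 among coding genes only and 341 to 512 with a library left out, most (512) when Control 2 was dropped, and 406, 392 and 341 when it was Control 1, NT4 2 and NT4 1. With all libraries, 312 genes met the study's criterion by edgeR's exact test, 227 by DESeq2 and 186 by voom, against 208 in the main fit. The cause of these moves was not tested. Neighbours and partners gave 0 calls in each alternative, a window of 50000 bases included. With library totals, Amigo2 moved to −0.013 and Agtpbp1 to −0.0068, and with voom Gm11843 moved to 0.17. With a library left out, some genes changed sign, most from values near 0 but Gm18960, Gm11843 and Slc38a4 from 0.63, −0.60 and −0.33, with ranges of 1700007K13Rik −0.58 to 0.26, Agtpbp1 −0.075 to 0.089, Amigo2 −0.086 to 0.090, Casc4 −0.13 to 0.027, Dnal4 −0.14 to 0.48, Efcab1 −0.92 to 0.48, Gm11843 −1.41 to 1.32, Gm18960 −0.42 to 6.10, Isca1 −0.13 to 0.066, Naa35 −0.038 to 0.14, Olfm1 −0.51 to 0.62, Pced1a −0.066 to 0.0064, Pogz −0.32 to 0.051, Ppp1ca −0.037 to 0.45, Rcc1 −0.20 to 0.064, Slc38a4 −0.79 to 0.33, Tada1 −0.14 to 0.23 and Uck2 −0.082 to 0.15. Others kept their sign but moved by over 1.5 times, with ranges of 1700001O22Rik 0.092 to 0.73, Acot6 −0.21 to −0.021, Elmsan1 −0.47 to −0.038, Gm6361 −0.65 to −0.13, Gm6565 0.14 to 0.93, Ildr2 −1.55 to −0.27, Pnma1 0.17 to 0.39, Ppp1cc 0.031 to 0.51 and Ube2v1 −3.06 to −0.20. Of the 14 places for genes of like pattern, 12 kept their gene at a prior count of 0.5, that of Apob not among them. With the replicate number as a block, 180 genes met the study's criterion and 0 an adjusted p of 0.05. The paper states that its culture experiments ran in parallel for all groups, but does not tie the library numbers to experiments. Deviations of same-numbered libraries correlated at 0.14 (Pearson) and 0.26 (Spearman) over 19259 genes, and with 2 pairs this does not establish a pairing. The sum of Ube2v1 with Gm20431 (−0.14) was chosen after seeing the data. Depth limits the lowest values, since a gene with no count can lie up to 0.152 to 0.242 CPM by library.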
